A study of Mus musculus with 5 samples.

Results

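The small leucine-rich proteoglycans are secreted matrix proteins. Probe sets of 9 of them were followed in mouse aortas, namely the genes of decorin (Dcn), biglycan (Bgn), lumican (Lum), fibromodulin (Fmod), osteoglycin (Ogn), prolargin (Prelp), asporin (Aspn), osteomodulin (Omd) and keratocan (Kera). The genes were chosen by name, and a probe set belonged to them if the platform annotation gave it that symbol alone. All 9 had a probe set, 19 in all, among 12393 named genes on the array, and 8 genes with 18 probe sets lay above the filter on low signals.

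Aortas came from male mice of the strain BKS.Cg-m +/+ Lepr db/J, aged 16 to 20 weeks and fed chow. The db/db mice were homozygous in every cell for db, a mutation of the leptin receptor gene Lepr, and such mice become obese and diabetic, while db/+ mice of the same colony were heterozygous. The strain name also holds m, the misty coat colour allele, written on the chromosome opposite to db. Read so, db/+ mice carry m and db/db mice do not, though the labels do not state it for each group. Any effect of m and that of db cannot be told apart here. There were 3 db/db arrays (replicates 1, 2 and 3) and 2 db/+ arrays (replicates 2 and 3), each a separate pool of the RNA of 6 aortas stripped of adventitia and fat, so the spread between arrays is that between pools and not between mice.

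A small leucine-rich proteoglycan has a core protein built of leucine-rich repeats, which folds into a curved rod and binds collagen fibrils. Decorin and biglycan carry chondroitin or dermatan sulfate chains, lumican, fibromodulin and keratocan can carry keratan sulfate, and asporin carries no such chain. In an artery, smooth muscle cells and fibroblasts make these proteins, which set the width and spacing of collagen fibrils and bind growth factors such as TGF-beta. Most of the genes lie beside each other. In the RefSeq gene table of GRCm38.p6, Dcn, Lum and Kera were consecutive protein-coding genes on chromosome 10, Aspn, Omd and Ogn on chromosome 13, and Prelp and Fmod on chromosome 1, while Bgn lay alone on chromosome X.

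Among the 8 genes above the filter, db/db signals were the farthest below those of db/+ for Fmod and Aspn, and the farthest above for Ogn. The promoters of these genes show what precedes each start. The sequences are from RefSeq's GRCm38.p6, 250 bases before to 50 after the gene's start, and the table held a promoter for 7 of the 9 genes. Capitals mark matches to TATAAA and CCAAT on either strand.
Fmod, chr1:134037004-134037303, + strand: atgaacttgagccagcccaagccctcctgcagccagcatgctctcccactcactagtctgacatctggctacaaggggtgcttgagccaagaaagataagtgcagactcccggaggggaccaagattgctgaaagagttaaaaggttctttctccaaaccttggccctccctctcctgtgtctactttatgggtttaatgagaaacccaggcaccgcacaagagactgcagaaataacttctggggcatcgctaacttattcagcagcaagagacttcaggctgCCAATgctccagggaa
Aspn, chr13:49544193-49544492, + strand: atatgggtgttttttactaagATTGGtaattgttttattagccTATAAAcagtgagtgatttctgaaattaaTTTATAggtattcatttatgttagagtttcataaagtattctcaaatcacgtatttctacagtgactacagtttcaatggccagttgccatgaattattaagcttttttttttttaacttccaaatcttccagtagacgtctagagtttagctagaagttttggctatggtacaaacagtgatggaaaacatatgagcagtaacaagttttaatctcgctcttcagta
Ogn, chr13:49607765-49608064, + strand: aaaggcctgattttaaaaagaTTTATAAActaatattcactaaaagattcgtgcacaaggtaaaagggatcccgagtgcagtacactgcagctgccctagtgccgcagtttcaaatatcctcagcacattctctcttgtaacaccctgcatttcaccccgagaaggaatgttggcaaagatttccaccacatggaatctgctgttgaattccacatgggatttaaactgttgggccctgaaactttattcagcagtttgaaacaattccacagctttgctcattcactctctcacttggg
Fmod had a CCAAT 34 bases after its start and no TATAAA. Aspn had TATAAA beginning 207 bases before its start. On the opposite strand it had TATAAA and CCAAT, whose leftmost printed bases lay 178 and 229 bases before the start. Ogn had TATAAA on both strands, overlapping, 229 and 227 bases before its start. Among 32851 promoters of this length, 13.6% held TATAAA and 37.4% held CCAAT. None of these 3 promoters matched GGGCGG (35.7% of all promoters), CAGACA (21.0%), TGANTCA (7.81%) or CACGTG (7.15%) on either strand. G and C made up 51.0% of the Fmod window, 31.0% of that of Aspn and 42.3% of that of Ogn, against a median of 52.7% over all promoters. Such matches describe letters and do not show binding.

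Values are MAS5 signals, linear intensities per probe set that are comparable between arrays but not between probe sets. Changes are db/db minus db/+ on the scale of log2(signal + 16), with the standard error (SE), 95% interval and adjusted p of limma, and means are given ± SD over the 3 db/db and the 2 db/+ arrays (n = 3 and n = 2). The aim of the series was to compare aortas of the 2 genotypes. Of the 18 tested proteoglycan probe sets, 0 passed an adjusted p under 0.05 in limma, against 0.0810% of the 13575 probe sets tested that were lower and 0.00% that were higher. Their adjusted p lay between 0.19 and 0.93. At an unadjusted p under 0.05, 7 of the 18 were lower (4.15% of all probe sets) and 0 were higher (3.98%), where 8.13% of all probe sets lay under it in either direction, and those 7 belonged to Fmod and Aspn alone. Counted by the brightest probe set of each gene, 2 of 8 genes were lower at that level and 4 of 8 had a negative change. The median change of the 8 genes was −0.03, beside 0.02 over all 8263 genes tested, of which 46.1% had a negative change, 4457 had a positive one, and 351 were lower and 360 higher at an unadjusted p under 0.05. Genes that passed the filter did so on their mean over all 5 arrays.

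**Figure D1:**
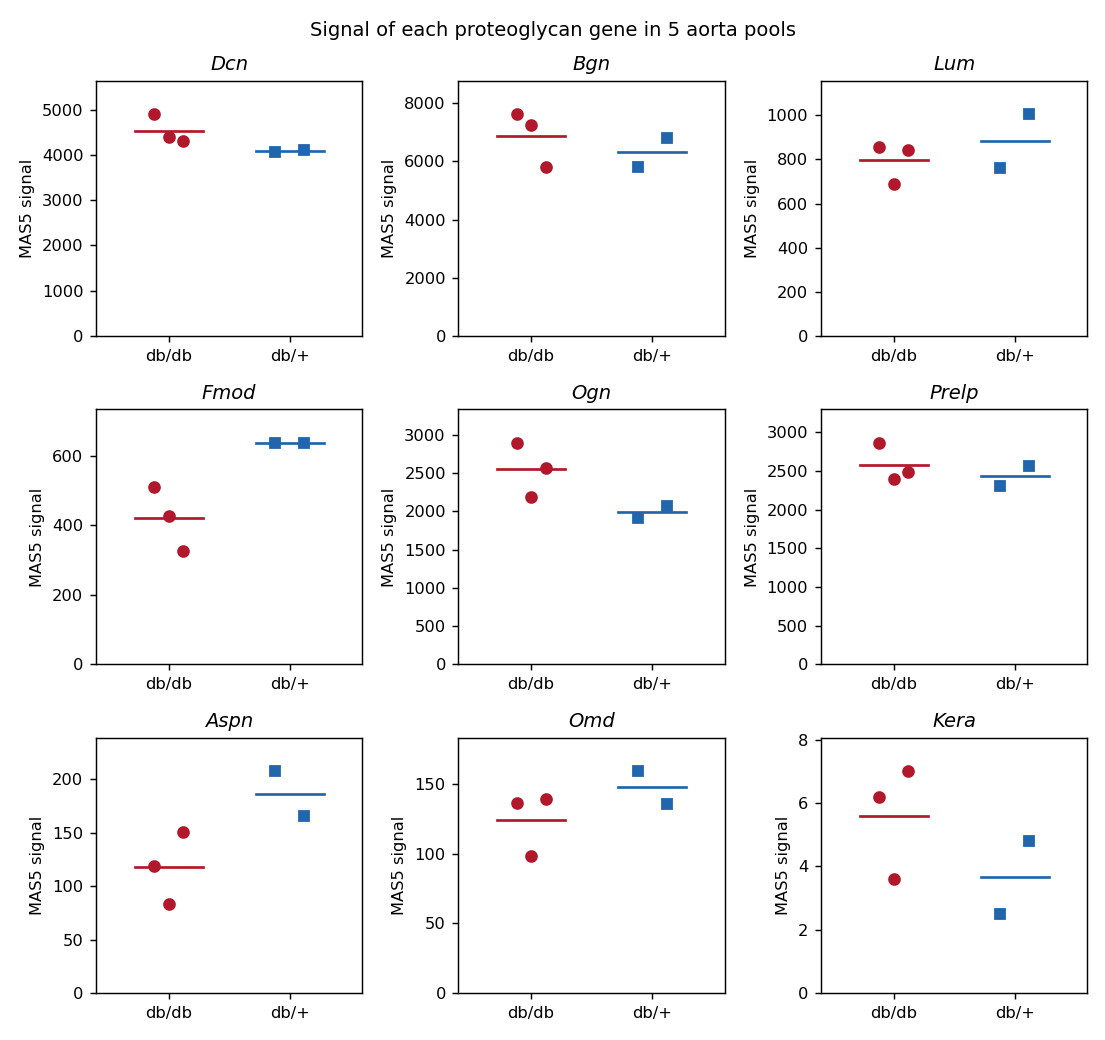
MAS5 signal of the brightest probe set of each gene (vertical axes, starting at 0) in the 3 db/db pools (red circles) and the 2 db/+ pools (blue squares), with bars at the means. All db/db points of Fmod and Aspn lie below both db/+ points, all db/db points of Ogn and Dcn lie above, and Kera stays at or under a signal of 7.0.

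Fibromodulin and asporin had lower signals in every db/db pool than in either db/+ pool, although neither passed the test. Fibromodulin binds collagen at a region that lumican also binds and is needed for regular fibrils in mouse tendon. The brightest Fmod probe set, 1415939_at, had signals of 509.2, 428.0 and 326.4 in db/db replicates 1, 2 and 3, against 636.2 and 637.7 in db/+ replicates 2 and 3. The db/db pools spread widely below a pair of nearly equal db/+ pools. Its mean was 421 ± 91.6 in db/db and 637 ± 1.06 in db/+, which is a log2 change of −0.60 (SE 0.20, 95% interval −1.06 to −0.14, adjusted p = 0.45).

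A further 5 probe sets were annotated as Fmod, all of the x type, whose probes may also read other transcripts, and the annotation gave no accession for them. The probe set with the smallest p, 1437324_x_at, had 239.5, 191.9 and 226.6 in db/db, against 422.3 and 358.7 in db/+. Here the db/db pools lay close together, clearly under both db/+ pools. The means were 219 ± 24.6 in db/db and 391 ± 44.97 in db/+, which is a log2 change of −0.79 (SE 0.17, 95% interval −1.18 to −0.40, adjusted p = 0.19). For 1456084_x_at, 1437718_x_at and 1437685_x_at the changes were −0.48, −0.46 and −0.45, again with no overlap between genotypes. The dim sixth probe set, 1438966_x_at, went the other way. It had 72.4, 55.0 and 77.9 in db/db, against 52.7 and 63.8 in db/+, and a change of 0.18 (SE 0.18, adjusted p = 0.87) with overlapping groups. The 6 probe sets share a gene and the same RNA, so they are not separate evidence.

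Asporin, named for a run of aspartate residues, binds collagen and calcium and is known to bind TGF-beta in cartilage. The brighter Aspn probe set, 1416652_at, had 119.0, 83.3 and 150.8 in db/db, against 207.6 and 165.3 in db/+. The highest db/db pool, replicate 3, was only a little under the lower db/+ pool. The log2 change was −0.62 (SE 0.23, 95% interval −1.15 to −0.10, adjusted p = 0.53). The second probe set, 1448421_s_at, had 58.1, 75.1 and 74.1 in db/db, against 166.0 and 117.4 in db/+. All db/db pools were well below both db/+ pools, and the db/+ pools differed from each other. The means were 69.1 ± 9.54 in db/db and 142 ± 34.4 in db/+, a change of −0.88 (SE 0.19, 95% interval −1.32 to −0.44, adjusted p = 0.20). Both Aspn probe sets thus pointed the same way, while the order of the db/db pools differed between them.

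**Figure D2:**
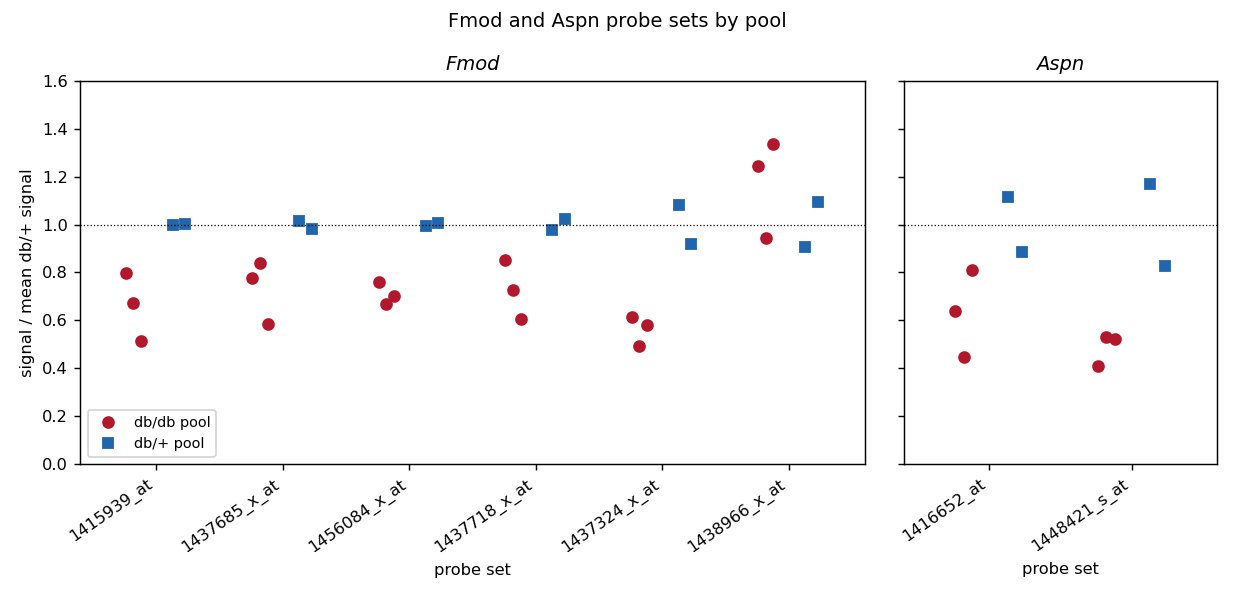
Signal of every Fmod and Aspn probe set in each pool, divided by the mean db/+ signal of that probe set (vertical axis, ratio), with db/db pools as red circles and db/+ pools as blue squares. At 5 of 6 Fmod probe sets and both Aspn probe sets all db/db pools lie below both db/+ pools, and at Fmod 1438966_x_at the groups overlap.

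Osteoglycin, also called mimecan, a proteoglycan that takes part in collagen fibril assembly, leaned the other way. The brighter Ogn probe set, 1419663_at, had 2894.9, 2187.3 and 2562.8 in db/db, against 1916.6 and 2065.5 in db/+. All db/db pools exceeded both db/+ pools, replicate 2 by little. The means were 2548 ± 354 in db/db and 1991 ± 105 in db/+, a change of 0.35 (SE 0.17, 95% interval −0.05 to 0.74, adjusted p = 0.67). At the second probe set, 1419662_at, the signals were 2133.4, 1670.3 and 2114.1 in db/db, against 1685.7 and 1444.3 in db/+. There db/db replicate 2 fell between the db/+ pools, and the change was 0.33 (SE 0.18, adjusted p = 0.70).

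Osteomodulin, a keratan sulfate proteoglycan first described in bone, is encoded between Aspn and Ogn. Its probe set had 136.3, 98.2 and 138.9 in db/db, against 159.2 and 136.0 in db/+. Replicate 2 of db/db was low and the other db/db pools were at the level of db/+ replicate 3. The change of Omd was −0.23 (SE 0.19, 95% interval −0.66 to 0.20, adjusted p = 0.83), with −0.087 without db/db replicate 2 and −0.13 without db/+ replicate 2. The 3 neighbours on chromosome 13 therefore had changes of −0.62 for Aspn, −0.23 for Omd and 0.35 for Ogn, and whether these differ from each other was not tested.

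Decorin and biglycan, the pair of closely related proteoglycans that bind TGF-beta, had small changes. Dcn had 4900.3, 4402.9 and 4301.9 in db/db, against 4060.0 and 4116.6 in db/+. The db/db pools were all above the db/+ pools, by a narrow margin. The means were 4535 ± 320 in db/db and 4088 ± 40.02 in db/+, a change of 0.15 (SE 0.15, 95% interval −0.20 to 0.50, adjusted p = 0.87), with 0.090 without db/db replicate 1. Biglycan can also act as a danger signal through toll-like receptors when it is released from the matrix. The brightest Bgn probe set, 1437889_x_at, had 7623.0, 7243.9 and 5806.9 in db/db, against 5820.9 and 6803.1 in db/+. It is also of the x type, whose probes may read other transcripts, and the annotation gave no accession for it. Replicate 3 of db/db had the lowest signal of all 5 pools, so the groups overlapped. The change was 0.12 (SE 0.18, 95% interval −0.29 to 0.53, adjusted p = 0.91), with −0.016 after quantile normalization and 0.0088 to 0.24 with an array left out, and the other Bgn probe sets each had 0.18 with adjusted p = 0.87. These signals were among the high values of the array, and saturation was not examined here.

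Lumican, which with fibromodulin helps to shape fibrils in tendon and cornea, had 856.8, 687.2 and 843.7 in db/db, against 763.0 and 1004.6 in db/+. The db/+ pools differed from each other by more than the means of the genotypes did. The change of Lum was −0.14 (SE 0.19, 95% interval −0.57 to 0.28, adjusted p = 0.90), and 0.053 without db/+ replicate 3. Prolargin, which links basement membranes to collagen, had 2864.9, 2394.6 and 2492.1 at Prelp probe set 1416321_s_at in db/db, against 2310.7 and 2563.5 in db/+. The groups overlapped, and the change was 0.08 (SE 0.16, 95% interval −0.29 to 0.45, adjusted p = 0.93), with −0.0083 after quantile normalization and 0.0053 to 0.16 with an array left out. The second Prelp probe set, 1416322_at, had a change of 0.14 (SE 0.19, adjusted p = 0.90). Keratocan is a proteoglycan of the cornea. Kera signals were 6.2, 3.6 and 7.0 in db/db, against 2.5 and 4.8 in db/+, all far under the filter's level of 39.5, so Kera was not tested and no fold is given.

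**Figure D3:**
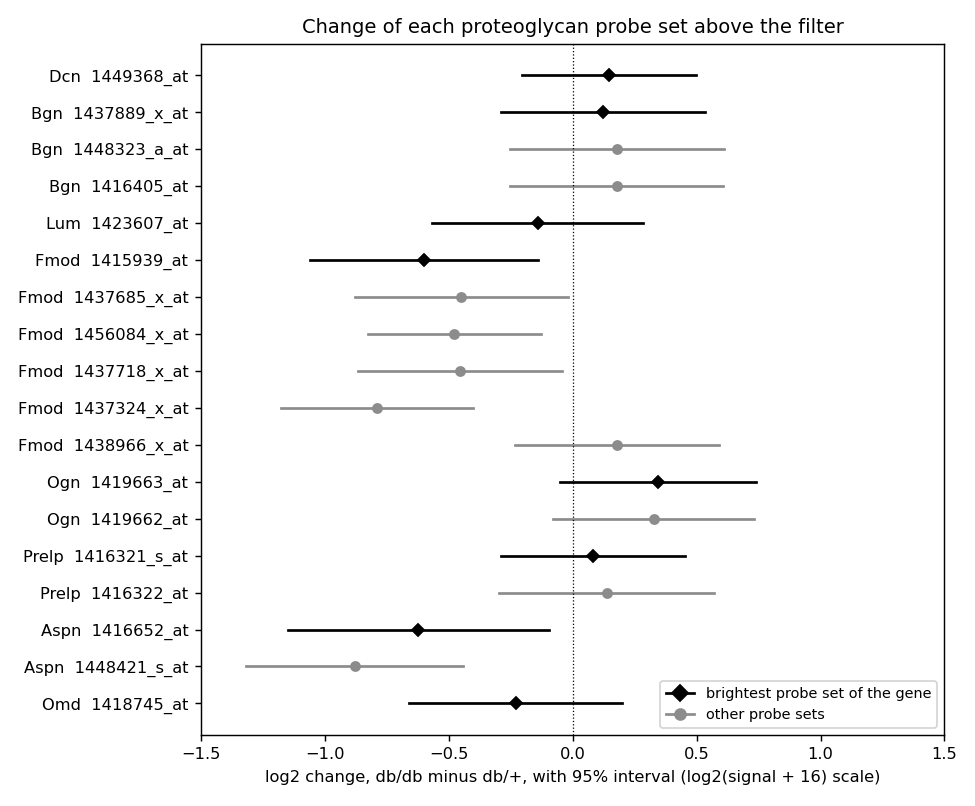
Log2 change (db/db minus db/+, horizontal axis, log2(signal + 16) scale) of the 18 probe sets above the filter, with 95% intervals from limma. Black diamonds are the brightest probe set of each gene and grey circles the others. The intervals of 5 Fmod and both Aspn probe sets lie below 0 before adjustment for the number of probe sets tested, and all others cross 0.

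The db/db and db/+ arrays were fully apart at 9 of the 18 probe sets, 7 of them lower and 2 higher in db/db. Over all probe sets tested the share was 25.0%, with 11.9% lower and 13.1% higher. By the brightest probe set the count was 4 of 8 genes, with Fmod and Aspn lower and Dcn and Ogn higher. The 7 lower probe sets come from Fmod and Aspn alone, so the count over probe sets repeats the same genes.

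The genes differed in how much they varied between pools. The highest pool exceeded the lowest by 1.21-fold for Dcn, by 1.24-fold for the brighter Prelp probe set and by 1.31-fold for the brightest of Bgn. For Omd the ratio was 1.62-fold, for Fmod 1415939_at 1.95-fold and for Aspn 1416652_at 2.49-fold. On the log2(signal + 16) scale the range over the 5 pools was 0.27 for Dcn and 1.17 for Aspn 1416652_at, beside a median range of 0.50 over all probe sets tested. Replicate 1 of db/db had the highest signal of Dcn, Bgn, Ogn and Prelp at their brightest probe sets. Replicate 2 of db/db had the lowest of Lum, Aspn and Omd, and replicate 3 of db/db the lowest of Fmod and Bgn.

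**Figure D4:**
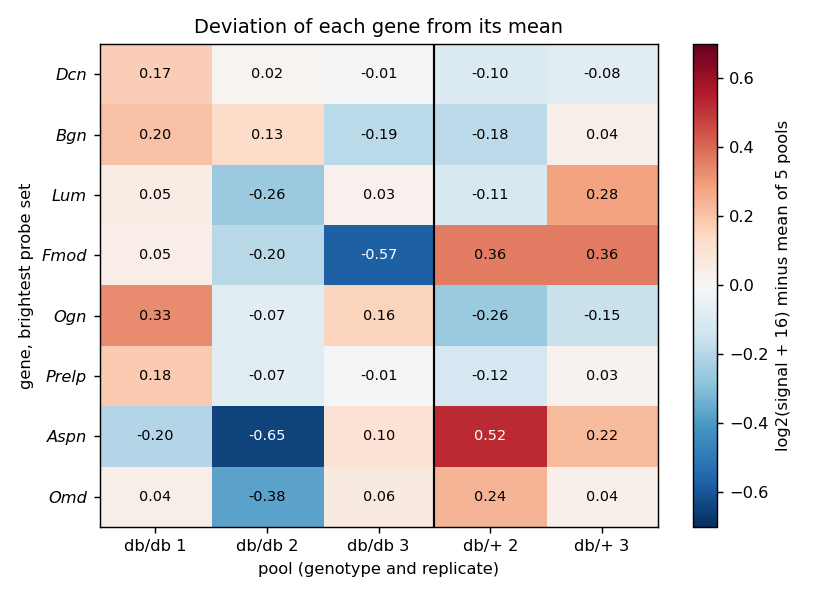
Deviation of log2(signal + 16) from the mean of the 5 pools for the brightest probe set of the 8 genes above the filter (rows), in the db/db pools left and the db/+ pools right of the line (columns). Fmod is at 0.36 in both db/+ pools, Aspn lies lowest in db/db replicate 2 (−0.65) and highest in db/+ replicate 2 (0.52), and Dcn and Prelp stay between −0.12 and 0.18.

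Likeness between genes was described as the mean absolute difference of these deviations over the 5 arrays. Among the 28 pairs of the 8 genes, Dcn and Prelp were closest at 0.046 and Bgn and Aspn farthest apart at 0.47. The pair of Fmod and Aspn, both lower in db/db, had 0.34. Among 8262 other genes, those nearest to Dcn were Oaz2, Fancc and Zfp110, at 0.011 to 0.017, where the median gene was at 0.16. Those nearest to Bgn were Ttc27, Rpl37a and Tcl1, at 0.013 to 0.020, with the median gene at 0.20. With so many genes and 5 arrays, close matches of this kind arise easily.

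Further members of the family had few probe sets. Of 9 other genes of the family, 3 had a probe set and only that of Optc passed the filter. Opticin, known from the vitreous of the eye, is encoded next to Prelp. The Optc probe set had 326.2, 177.7 and 245.5 in db/db, against 105.0 and 145.8 in db/+. All db/db pools were higher than both db/+ pools. The change was 0.89 (SE 0.25, adjusted p = 0.35), which did not pass. The signals of Epyc, epiphycan of cartilage, were between 28.7 and 40.8 in db/db and 35.2 and 47.6 in db/+. Those of Chad, chondroadherin, were between 6.4 and 16.7 in db/db and 12.2 and 21.3 in db/+.

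Fibril collagens and their partners, the proteins these proteoglycans bind, had 20 tested genes, of which 0 passed in limma, 1 was lower and 0 were higher at an unadjusted p under 0.05, and 13 had a negative change, against 46.1% of all genes tested. Their median change was −0.08. The smallest p were those of Comp, a pentamer that brings collagens together (130 in db/db and 262 in db/+, change −0.94, SE 0.18, adjusted p = 0.13), of fibronectin, Fn1 (−0.37), and of the minor collagen chain Col5a3 (−0.32). Among 18 ligands, receptors and binding proteins of TGF-beta, the growth factor that decorin binds, 0 passed in limma, 3 were lower and 2 higher at an unadjusted p under 0.05, and the median was −0.04. For this list and the collagens, the counts over all 8263 genes tested were 351 lower and 360 higher at that unadjusted level. Thrombospondin 1, Thbs1, an activator of latent TGF-beta, had a change of −1.33 (adjusted p = 0.096), the latent TGF-beta binding protein family member Ltbp2 −0.59 and the inhibitory Smad6 −0.65.

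Enzymes that build and sulfate the sugar chains were listed together with the tyrosine sulfotransferases Tpst1 and Tpst2, which act on proteins. Of the 18 genes tested 0 passed in limma. At an unadjusted p under 0.05, 1 was lower and 2 were higher, beside 351 lower and 360 higher of all 8263 genes tested. The median was −0.03. The chondroitin sulfotransferase Chst15 had 53.6 in db/db and 147 in db/+ (change −1.24, SE 0.17, adjusted p = 0.052). Tpst1, a tyrosine sulfotransferase, and Chpf, a chondroitin polymerizing factor, had 0.49 and 0.36. Of 18 other proteoglycans 1 was lower and 0 were higher after adjustment in limma, beside 9 lower and 0 higher of all 8263 genes tested. At an unadjusted p under 0.05, 5 of the 18 were lower and 0 higher, beside 351 lower and 360 higher of all genes. Their median was 0.04. The gene lower after adjustment was Prg4, which encodes lubricin, with 87.8 in db/db and 252 in db/+ (change −1.38, SE 0.17, adjusted p = 0.046). This call was lost when db/+ replicate 2 was left out (−1.39, adjusted p = 0.36), and likewise for db/+ replicate 3 (−1.36, adjusted p = 0.54) and db/db replicate 3 (−1.36, adjusted p = 0.096). With all arrays it was also lost under some other settings, with adjusted p up to 0.17 with no filter. Aggrecan, Acan, the large proteoglycan of cartilage, had −0.83 (adjusted p = 0.20), and the glypican Gpc3 had −1.26 (adjusted p = 0.23).

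Proteases that cut these proteins and their inhibitors had 11 tested genes, with 0 past the threshold in limma, 1 lower at an unadjusted p under 0.05 and a median of −0.20. Stromelysin 1, Mmp3, had a change of −0.74, the inhibitor Timp1 −0.56 and the procollagen protease enhancer Pcolce −0.30, with adjusted p between 0.23 and 0.70. Among 13 receptors and signalling partners 0 passed in limma, 2 were lower and 1 higher at an unadjusted p under 0.05, and the median was 0.01. Beside both lists stand 351 lower and 360 higher of all 8263 genes tested at that level. Bmp4, Nlrp3 and Cd14, the last a coreceptor through which biglycan signals, had changes of −0.63, 0.43 and −0.44.

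Markers of cells that make or accompany these proteoglycans were read beside them. In bulk RNA, fewer cells of a type and less RNA per cell cannot be told apart. Fibroblast and adventitia markers had summed signals of 14356 to 16443 in db/db and 15908 to 16347 in db/+, with a median change of 0.06 over 20 genes and 0 past the threshold in limma (4 lower and 1 higher at an unadjusted p under 0.05). At that level 351 of all 8263 genes tested were lower and 360 higher. Smooth muscle markers summed to 47646 to 58097 in db/db and 43726 to 48101 in db/+, and 18 of 20 had a positive change, as did 4457 of all 8263 genes tested, with 0 past the threshold in limma (3 at an unadjusted p under 0.05, all higher). Myh11, the myosin of smooth muscle, was read at 3590 to 3916 in db/db and 3366 to 3426 in db/+, as a check of the tissue.

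Among markers of other cell types, the summed signals of 4 lists were lower in every db/db pool than in either db/+ pool. Macrophage markers summed to 4393 to 4697 in db/db and 7338 to 8715 in db/+, with a negative change for 16 of 17 genes (46.1% of all genes tested), a median of −0.67, 0 past the threshold in limma and 12 lower at an unadjusted p under 0.05 (351 of all 8263 genes). Endothelial markers summed to 2635 to 3171 in db/db and 3642 to 3810 in db/+, with 13 of 16 negative and 7 lower at that unadjusted level. Mesothelial markers summed to 724 to 875 in db/db and 1232 to 1430 in db/+, with 4 of 6 negative and Prg4 past the threshold. The mesothelial genes were uneven, with −1.38 for Prg4, −1.31 for Slpi, −0.51 for Gpm6a and −0.37 for Upk3b. The keratins Krt8 and Krt18 of that list had 0.0040 and 0.11. Mean signals of Prg4 and Slpi were 87.8 and 135 in db/db, against 252 and 357 in db/+. Chondrocyte and bone cell markers summed to 609 to 708 in db/db and 758 to 853 in db/+ over 18 genes, of which 5 passed the filter, with 0 past the threshold in limma and a median of 0.22. Comp (−0.94) and Acan (−0.83) were lower on every db/db array, while Sp7, Col9a1 and Alpl had changes of 0.53, 0.23 and 0.22. The defining cartilage collagen Col2a1 was at 5.2 to 9.4 in db/db and 4.9 to 10.7 in db/+. The part of these cells in the Fmod and Aspn values was not tested.

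Fat and heart transcripts were also present. Adipocyte markers summed to 15710 to 26602 in db/db and 22169 to 22556 in db/+, lowest in db/db replicate 1, the array with the highest Dcn, Bgn, Ogn and Prelp. That array also had the highest sums of smooth muscle markers (58097) and of fibroblast and adventitia markers (16443). What part these sums had in the proteoglycan values was not tested. Of 14 adipocyte genes 1 passed, the leptin gene Lep, which was lower (−2.96, adjusted p = 0.0073) but passed neither without db/+ replicate 2 (−2.87, adjusted p = 0.10) nor without db/+ replicate 3 (−3.05, adjusted p = 0.12). With all arrays Lep also did not pass with a pseudocount of 1 (adjusted p = 0.061) or with no filter (adjusted p = 0.11), and it lay under a filter at the 60th percentile. Mean Lep signals were 23.5 in db/db, under the filter's level of 39.5, and 283 in db/+. The size of the Lep change depended on the pseudocount, with −3.65 for 1 and −1.99 for 64. The list labelled valve and cardiac muscle markers holds genes of heart muscle and none chosen for valves. These genes summed to 4597 in db/db replicate 2, the array with the lowest Lum, Aspn and Omd. Their sums were 853 to 1080 in the other db/db pools and 1441 to 1877 in db/+. Without db/db replicate 2 the change of Aspn 1416652_at was −0.42 and that of 1448421_s_at −0.93, and without db/db replicate 1 the change of Ogn 1419663_at was 0.25. Correlation of log2 signals between any pair of arrays lay between 0.952 and 0.977.

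**Figure D5:**
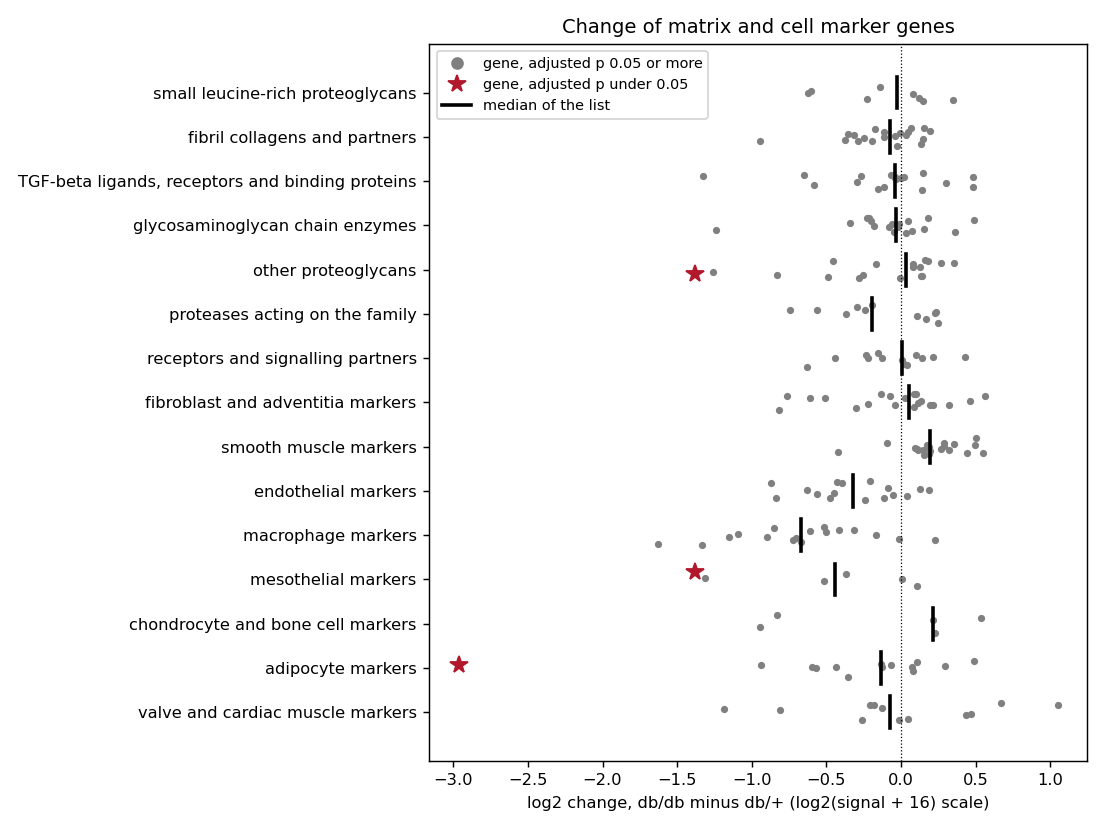
Log2 change (db/db minus db/+, horizontal axis, log2(signal + 16) scale) of every tested gene of the proteoglycan, matrix and cell marker lists (rows), by the brightest probe set. Points are genes, black bars list medians and stars genes with an adjusted p under 0.05. The stars are Prg4 at −1.38, in both the other proteoglycans and the mesothelial lists, and Lep at −2.96 among the adipocyte markers, and the points of the small leucine-rich proteoglycans spread from −0.62 to 0.35.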

How the data were processed

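Male mouse aortas were measured on Affymetrix arrays, 3 db/db and 2 db/+, each array a pool of 6 aortas per the series' design text. That text describes pools in triplicate, while the labels given here hold 2 db/+ arrays. All arrays with a label here were used. Per the labels' protocols, 10 µg of RNA gave the biotin-labelled cRNA. The deposited intensity of a probe set is a linear signal from MAS5, according to the submitters' processing notes; version and build are not given in the sources used here. The 2% trimmed mean was 150.05 on every array, so no further normalization was done, and detection calls were not used here. Precision is limited by having 5 arrays.

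Of 22690 probe sets, 64 controls were left out, and 20380 had 1 symbol, 691 several and 1555 none. An Entrez identifier matched 20351 of the named ones to RefSeq's GRCm38.p6 gene table, and 0 symbols changed. Values became log2(signal + 16), probe sets with a mean above the 40th percentile (a signal of 39.5) were kept, and limma 3.58.1 in R 4.3.3 (lmFit, eBayes, two-sided, no covariates, 3 residual and 5.63 prior degrees of freedom) tested 13575, with Benjamini-Hochberg adjustment over all of them. A gene in a list is represented by its probe set with the highest mean.

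The 9 genes, the lists and the rules were chosen with earlier results of these data known. The text gives every probe set of the 9 genes, up to 3 genes of each other list with the smallest p, and the 3 genes nearest to Dcn and Bgn. List genes of cell markers are given mostly as sums. Alternatives were pseudocounts of 1 and 64, no filter or one at the 60th percentile, median centring or quantile normalization, array weights, a trended robust eBayes, a block for the replicate number, leaving out each array, a threshold of 0.1 and averaging the probe sets of a gene.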

Additional observations from a re-analysis of the deposited data

How the results depend on the processing

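No proteoglycan probe set passed the adjusted threshold in limma under any alternative run, a threshold of 0.1 included. Over these runs the smallest adjusted p was 0.11, for Fmod 1437324_x_at with a pseudocount of 64. In the main fit 7 of 18 were at an unadjusted p under 0.05, and the probe sets at that level differed between runs. With a pseudocount of 1 Fmod 1437685_x_at was no longer among them, and with 64 Ogn 1419663_at, which was higher, joined them. The 5 lower Fmod probe sets and both Aspn probe sets kept a negative change throughout, from −0.74 to −0.44 for Fmod 1415939_at, −0.80 to −0.42 for Aspn 1416652_at and −1.10 to −0.62 for Aspn 1448421_s_at, and Ogn 1419663_at stayed between 0.25 and 0.45. Bgn 1437889_x_at turned to −0.016 and Prelp 1416321_s_at to −0.0083 with quantile normalization, and Lum to 0.053 without db/+ replicate 3, over a range of −0.34 to 0.053 with an array left out. The cause was not tested. The median over the 8 genes, −0.03, ranged from −0.10 to 0.10 when an array was left out. The number of probe sets past the threshold, 11, was 1 with a pseudocount of 1, 35 with 64, 1 with no filter, 22 with a filter at the 60th percentile, 19 with median centring, 39 with trend and robust, 48 with array weights and 48 at a threshold of 0.1. It ranged from 0 (without db/+ replicate 2, with 761 at an unadjusted p under 0.05 in limma) to 28 (without db/db replicate 1), and was 1 without db/+ replicate 3. Fits without a db/+ array leave 1 db/+ array, assumed to vary like db/db. A replicate block, to which db/db replicate 1 contributes no difference, gave 20 probe sets, with −0.74 for Fmod 1415939_at and −0.65 for Aspn 1416652_at. Deviations of same-numbered arrays correlated at 0.11 for number 2 and −0.0048 for number 3, but with 2 db/+ arrays the deviations in db/+ mirror each other, so these values do not settle whether the numbers pair the arrays. The 5 arrays limit what could be detected.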
